A study of Mus musculus with 15 samples.

Results

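A set of 10 genes that p53 is known to switch on were followed in mouse substantia nigra after a viral vector carrying either miR-181 or green fluorescent protein (GFP) had been injected on one side of the brain. They are Cdkn1a, Ccng1, Mdm2, Zmat3, Bax, Bbc3, Phlda3, Trp53inp1, Eda2r and Gdf15. Their spans are given with each gene on GRCm38 from GENCODE M21, where each is protein-coding. All were found by gene symbol, each as 1 of 36265 genes with values in both deposited tables. The substantia nigra is the midbrain region that holds many of the brain's dopamine neurons.

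The miR-181 mice (n = 3) had received AAV-hSYN1-miR-181 at 1.65e10 vector genomes on the injected side, and the opposite side of the same animals was left uninjected. The GFP mice had received AAV-hSYN1-GFP at 1e10 vector genomes, which gave 4 injected and 5 uninjected libraries, because mouse 5 has an uninjected library only here. All mice were C57Bl/6J animals taken 3 weeks after injection, with no age stated in the labels. AAV is an adeno-associated virus used to carry genes into tissue, and hSYN1 is the human synapsin promoter, which directs expression to neurons. The labels do not say which member of the miR-181 family the vector carries. The tissue is a dissected piece with all its cell types, so fewer cells of a type and less RNA per cell cannot be told apart in any value below. Each library is 1 side of 1 mouse. The miR-181 libraries were prepared as one set and read as 75-base pairs, and the GFP libraries as another set read as 50-base pairs, so vector, dose, library set and sequencer change together and cannot be told apart.

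p53, the product of Trp53, is a transcription factor that is held low by Mdm2 and is released from it after DNA damage and other stresses. It binds DNA at response elements built from pairs of a short half-site and raises genes that halt the cell cycle, favour cell death or feed back on p53 itself. In neurons, which do not divide, the pathway is best known for its part in death after DNA damage. miR-181 is a microRNA family, and a microRNA lowers the mRNAs whose 3′ untranslated regions pair with its seed, which is bases 2 to 8 counted from its 5′ end.

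The mature miR-181 sequences are shown first, because the seed is what would tie any of the 10 genes directly to the injected microRNA. They come from RefSeq annotation of GRCm38.p6, run 5′ to 3′, and carry the seed in capitals.
mmu-miR-181a-5p: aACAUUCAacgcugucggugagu
mmu-miR-181b-5p: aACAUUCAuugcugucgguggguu
mmu-miR-181c-5p: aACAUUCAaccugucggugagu
mmu-miR-181d-5p: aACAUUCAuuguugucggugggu
All 4 share the seed ACAUUCA. Its matches in a target, written as DNA, are TGAATGT (bases 2 to 8) and GAATGTA (bases 2 to 7 followed by A); the 2 overlap in the longer 8mer TGAATGTA. Only the mRNA strand was searched.

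Such a match stood in the 3′ untranslated region of 4 of the 10 genes, against 23.8% of the 14274 tested genes with an annotated 3′ untranslated region. The 10 genes had a median of 1334.5 bases in that region and the tested genes 1198 bases. The 4 sites are printed 5′ to 3′ on the gene's strand from GENCODE M21 transcripts on GRCm38, with the match in capitals.
Cdkn1a, chr17:29100171-29100199, plus strand: ggactggaaggGAATGTAtatgcagggta
Ccng1, chr11:40748854-40748883, minus strand: ccatgctggctTGAATGTAtgatccacact
Eda2r, chrX:97336760-97336788, minus strand: ttgttgtttctTGAATGTctttgcatttt
Zmat3, chr3:32334924-32334952, minus strand: atacagaagtcTGAATGTtatttaagctt
The Ccng1 site is the only 8mer of the 4. Trp53inp1 held no match in 4420 bases, and neither did Mdm2, Bax, Bbc3, Phlda3 or Gdf15 in theirs. A match is a run of letters and no measure of binding.

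The promoter windows were searched for the p53 half-site, a 10-base motif that reads the same on both strands. RefSeq windows, which run 250 bases before to 50 bases after a gene's start on GRCm38.p6, were present for 8 of the 10 genes, and 4 of those 8 genes held at least 1 half-site. Among all 32851 windows 8.36% held one, and 8.35% of the 11384 tested genes with a window did. The 5 half-sites are printed with 10 bases on each side, 5′ to 3′ on the gene's strand, with the half-site in capitals.
Cdkn1a, chr17:29090896-29090925, plus strand: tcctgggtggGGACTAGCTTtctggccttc
Cdkn1a, chr17:29090918-29090947, plus strand: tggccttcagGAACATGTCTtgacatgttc
Mdm2, chr10:117710925-117710954, minus strand: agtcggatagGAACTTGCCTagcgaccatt
Bax, chr7:45467080-45467109, minus strand: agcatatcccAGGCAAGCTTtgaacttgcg
Ccng1, chr11:40755452-40755481, minus strand: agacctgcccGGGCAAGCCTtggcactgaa
No half-site was found in the windows of Bbc3, Phlda3, Eda2r and Gdf15, which says only that the motif is not in those bases. Trp53inp1 and Zmat3 had no window.

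In miR-181 mice 1 of the 10 genes, Trp53inp1, rose on the injected side, and 8 of the 10 were higher on the injected side in each of the 3 mice (6 of the 8 tested, against 25.6% of all tested genes). Zmat3 alone was lower on the injected side in every mouse. The sides belong to the same animals, and with the mouse kept as a block in the fit the Trp53inp1 call was lost (limma adjusted p = 0.0604) and Cdkn1a was called in its place (limma adjusted p = 0.0473), where 3.69% of tested genes were called higher. In GFP mice none of the 10 passed the test in either direction. In each of the 4 mice with both sides, 2 of the 10, Cdkn1a and Gdf15, were higher on the injected side (1 of the 8 tested, Cdkn1a, against 11.0% of all tested genes). These statements use a limma fit of log2(value + 0.5), with p-values adjusted by the Benjamini-Hochberg method over every gene whose mean was at least 1, and a gene was called at an adjusted p below 0.05. The values appear to be transcript abundances scaled for gene length and depth (TPM) and divided by a size factor for each library, which no label states. Among genes with 1 annotated transcript, the authors' average estimated count divided by the average value followed transcript length. Spearman rho across genes was 0.983 over 2000 genes in miR-181 mice and 0.985 over 1825 genes in GFP mice. The slope of the log of that ratio on log length was 1.28 and 1.23, where strict proportion gives 1. Levels are compared between genes on that basis, which is approximate. With the filter, 8 of the 10 genes were tested, and Eda2r and Gdf15 lay below it in both sets of mice. In miR-181 mice 4.39% of 15453 tested genes were called higher and 1.49% lower. In GFP mice the shares were 1.34% and 0.0131% of 15274. The split of the miR-181 calls depended on scaling, with 678 higher and 230 lower as fitted (74.7% higher) and 634 higher and 468 lower after the libraries were centred on their medians (57.5% higher).

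Values on the injected and the uninjected side are drawn for each gene and mouse in the panels of abundance by library.

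**Figure D1:**
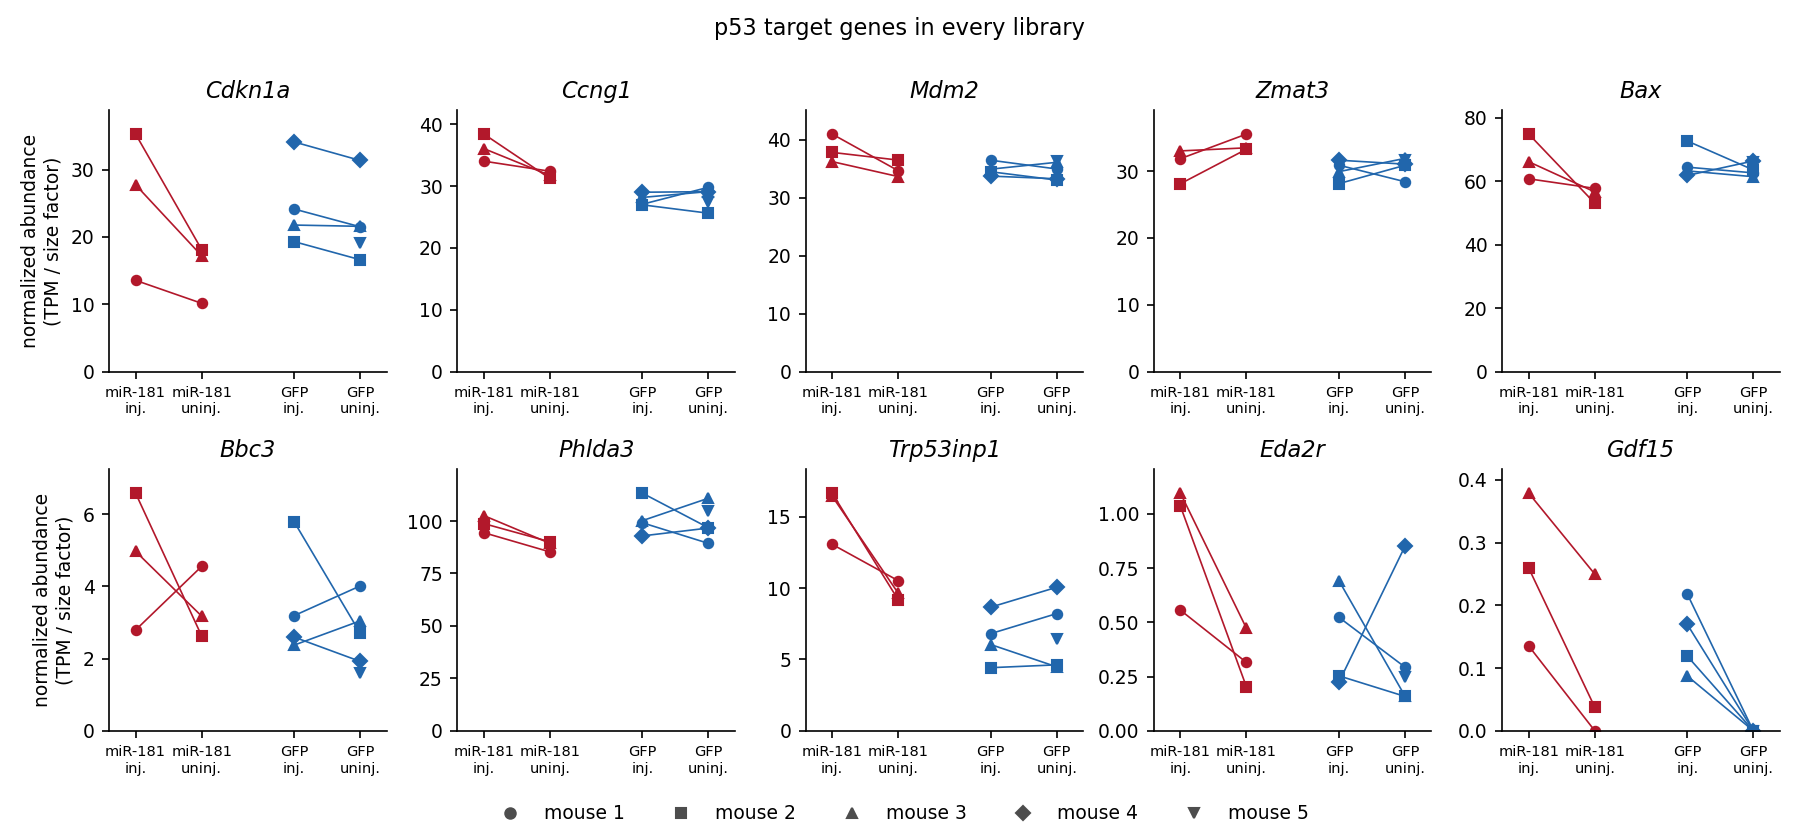
Abundance (apparently TPM divided by the library's size factor, linear axis from 0) of the 10 p53 target genes in each of the 15 libraries. Red symbols are miR-181 mice, blue symbols GFP mice, and symbol shapes are mice. Lines join the injected (inj.) and uninjected (uninj.) side of 1 animal. Trp53inp1 lies between 13.1 and 16.7 on the miR-181 side, against 9.19 to 10.5 on the uninjected side of those mice, while lines for the GFP mice run both up and down.

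Several facts of the whole libraries stand beside these results. Markers of microglia, the resident macrophages of the brain, summed to 561.7 to 786.7 on the miR-181 side against 314.2 to 337.1 on the uninjected side, and 7 of the 8 rose. In GFP mice 6 of those 8 rose, with sums of 367.4 to 441.6 on the injected side and 228.9 to 299.3 on the uninjected side. T and NK cell markers summed to 22.3 to 134 on the miR-181 side against 4.80 to 6.93, and markers of dividing cells to 20.6 to 38.3 against 11.3 to 12.97. In GFP mice the T and NK and the dividing cell sums were 14.8 to 19.1 against 4.13 to 7.17 and 13.1 to 18.2 against 10.8 to 19.2. Of 9 T and NK cell markers 6 rose in miR-181 mice, and of 9 tested markers of dividing cells 2 did. B and plasma cell markers summed to 941.9 to 4991.1 on the miR-181 side against 85.3 to 149.4, with 5 of 6 tested called higher, and in GFP mice to 97.5 to 1536.8 on the injected side against 23.4 to 51.6, with 3 of 4 tested called higher. Monocyte and perivascular macrophage markers summed to 18.4 to 70.6 on the miR-181 side against 9.61 to 13.4 (2 of 6 tested rose), and to 11.9 to 21.4 against 5.02 to 7.94 in GFP mice (0 of 5). Astrocyte markers summed to 2069.5 to 2381.8 on the miR-181 side against 1679.3 to 1820.7 (2 of 7 rose), and to 1520.8 to 1744.5 against 1314.2 to 1530.4 in GFP mice (1 of 7). Of the listed markers of these 6 cell classes, Plac8, of the monocyte list, was at 0 in every uninjected GFP library, and no other was at 0 in all libraries of a side. The 8 pan-neuronal markers summed to 3414.0 to 4005.2 on the miR-181 side, against 4166.8 to 4408.7 on the uninjected side, and none was called. All 8 listed dopamine neuron markers were present in the tables, and none was called in either set. All 8 had log2 changes below 0 in miR-181 mice (median -0.33, sums of 1023.8 to 1849.4 on the injected side and 1362.9 to 1797.4 on the uninjected side) and above 0 in GFP mice (median 0.14). Over all tested genes 7857 of 15453 were above 0 in miR-181 mice and 7914 of 15274 in GFP mice. In the difference between the sets all 8 were below 0 (median -0.48), with none called. Of all 14824 genes in that difference 7419 were above 0. Above 0 there were also 0 of 7 oligodendrocyte, 0 of 5 oligodendrocyte precursor and 1 of 8 pan-neuronal markers, so the fall was not particular to dopamine neuron markers. Pituitary markers reached a sum of 50092.2 in the uninjected library of GFP mouse 1 (2450.9 on its injected side), against 2.998 in the lowest uninjected library of that set, and without that mouse none of the 8 tested genes was called in the GFP comparison, with limma adjusted p from 0.683 (Bbc3) to 0.992 (Phlda3). The part of these cell types in the values of the 10 genes was not tested. Every library listed between 15022 and 15563 genes at 1 or more.

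Cdkn1a (chr17:29090976-29100727, plus strand) encodes p21, the inhibitor of cyclin-dependent kinases through which p53 halts the cell cycle. It had 13.6, 35.3 and 27.7 TPM-scaled units on the injected side of miR-181 mice 1, 2 and 3, against 10.2, 18.1 and 17.2 on the uninjected side. Mouse 1 was the lowest on both sides, and the 2 groups of libraries overlapped although each mouse was higher on its injected side. Its log2 change was 0.67 ± 0.37 (SE of the fit without a block, n = 3 libraries per side, limma adjusted p = 0.326), so it was not called. With the mouse kept as a block in the limma fit, so that each side is set against the other side of the same animal, the change had the same size and an adjusted p = 0.0473. Within mice the log2 change was 0.40, 0.94 and 0.67 in mice 1, 2 and 3.

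In GFP mice Cdkn1a had 24.2, 19.3, 21.8 and 34.1 on the injected side of mice 1 to 4, against 21.5, 16.6, 21.6, 31.4 and 19.1 on the uninjected side of mice 1 to 5. The sides overlapped, and mouse 4 was the highest on both. On the log2 scale the change was 0.17 ± 0.19 (SE, limma adjusted p = 0.829), and 0.13 with the mouse block (limma adjusted p = 0.566). Within the 4 GFP mice with both sides the log2 change was 0.16, 0.21, 0.01 and 0.12. It was above 0 in every mouse of both sets, as for 25.6% of tested genes in miR-181 mice and 11.0% in GFP mice. The lowest miR-181 mouse lay above the highest GFP mouse, a separation whose share over all genes was not counted. The difference between the sets was not called (limma adjusted p = 0.135).

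Ccng1 (chr11:40748552-40755311, minus strand) encodes cyclin G1, which brings a phosphatase to Mdm2. It had 34.0, 38.4 and 36.1 on the miR-181 side of mice 1, 2 and 3, against 32.4, 31.2 and 31.7 on the uninjected side. The sides did not overlap, as for 16.0% of all tested genes in the same direction. The log2 change was 0.18 ± 0.06 (SE of the fit without a block, n = 3 libraries per side, limma adjusted p = 0.133). In GFP mice Ccng1 had 27.1, 27.0, 28.2 and 29.0 on the injected side, against 29.8, 25.6, 29.1, 29.1 and 27.4 on the uninjected side. These sides overlapped throughout, and the change in log2 was -0.02 ± 0.06 (SE, limma adjusted p = 0.943).

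Mdm2 (chr10:117688875-117710758, minus strand) encodes the ubiquitin ligase that marks p53 for degradation and is itself a p53 target, which closes a feedback loop. It had 41.0, 37.8 and 36.2 on the miR-181 side of mice 1, 2 and 3, against 34.7, 36.5 and 33.6 on the uninjected side. Each mouse was higher on its injected side. Mouse 1, the lowest for Cdkn1a, was here the highest on the injected side, while mouse 2 was the highest on the uninjected side. The fitted change was, in log2, 0.13 ± 0.06 (SE, limma adjusted p = 0.275). In GFP mice Mdm2 ranged from 33.7 to 36.5 on the injected side and from 33.0 to 36.4 on the uninjected side. The 95% interval of its log2 change there was -0.10 to 0.11, and the fitted value changed sign without GFP mouse 1.

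Zmat3 (chr3:32334792-32366014, minus strand) encodes a zinc finger protein that binds RNA. It had 31.9, 28.1 and 33.0 on the miR-181 side of mice 1, 2 and 3, against 35.5, 33.3 and 33.5 on the uninjected side. All 3 injected libraries lay below all 3 uninjected ones, as for 14.5% of all tested genes. The log2 change was -0.14 ± 0.07 (SE, limma adjusted p = 0.312). In GFP mice it was -0.03 ± 0.05 (SE, limma adjusted p = 0.900), with 28.1 to 31.6 on the injected side and 28.4 to 31.9 on the uninjected side.

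Bax (chr7:45461697-45466898, minus strand) encodes the BCL-2 family protein that opens pores in the outer mitochondrial membrane during apoptosis. It had 60.8, 74.9 and 66.2 on the miR-181 side of mice 1, 2 and 3, against 57.8, 53.1 and 56.7 on the uninjected side. The sides did not overlap, as for 16.0% of all tested genes in the same direction. Mouse 2 had both the highest injected and the lowest uninjected value. The change in log2 was 0.26 ± 0.08 (SE, limma adjusted p = 0.117). In GFP mice Bax had 64.5, 72.7, 63.3 and 61.8 on the injected side, against 62.7, 63.6, 61.4, 66.4 and 66.1 on the uninjected side. Injected mouse 2 stood above the other libraries, and the log2 change was 0.03 ± 0.05 (SE, limma adjusted p = 0.894).

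Bbc3 (chr7:16308393-16318205, plus strand) encodes PUMA, a BH3-only protein that activates Bax. It had 2.79, 6.58 and 4.97 on the miR-181 side of mice 1, 2 and 3, against 4.55, 2.63 and 3.17 on the uninjected side. Mouse 1 ran opposite to the other two mice, with a log2 change of -0.62 against 1.18 in mouse 2 and 0.57 in mouse 3. The fitted log2 change was 0.38 ± 0.31 (SE, limma adjusted p = 0.515). In GFP mice it was 0.32 ± 0.28 (SE, limma adjusted p = 0.773), and the sides were higher in 2 mice and lower in 2. In the authors' deposited table the average estimated count behind Bbc3, taken on a log scale, was 37.9 for the miR-181 set and 12.96 for the GFP set.

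Phlda3 (chr1:135766119-135769136, plus strand) encodes a small membrane-binding protein that opposes Akt, a survival kinase. It had 94.5, 98.8 and 102.6 on the miR-181 side of mice 1, 2 and 3, against 85.3, 90.1 and 89.4 on the uninjected side. It was the most abundant of the 10 genes on both sides. The sides did not overlap, as for 16.0% of all tested genes in the same direction. The log2 change of 0.16 ± 0.05 (SE, limma adjusted p = 0.116) was alike in mice 1, 2 and 3 at 0.15, 0.13 and 0.20. In GFP mice Phlda3 had 99.2, 113.3, 100.2 and 92.9 on the injected side, against 89.4, 96.8, 110.9, 96.7 and 104.7 on the uninjected side. Those sides overlapped, and in log2 the change was 0.02 ± 0.07 (SE, limma adjusted p = 0.943).

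Trp53inp1 (chr4:11156431-11174379, plus strand) encodes a stress protein that takes part in p53-dependent cell death and in autophagy. It had 13.1, 16.7 and 16.5 on the miR-181 side of mice 1, 2 and 3, against 10.5, 9.19 and 9.65 on the uninjected side. The sides did not overlap, as for 16.0% of all tested genes in the same direction, and injected mouse 1 was the nearest to the uninjected libraries. In log2 the change was 0.62 ± 0.11 (SE of the fit without a block, n = 3 libraries per side, 1.54-fold, limma adjusted p = 0.0288), and it was above 0 in 3 of 3 mice at 0.30, 0.83 and 0.74. The call was lost with the mouse block (limma adjusted p = 0.0604), with no intensity trend in the variance (limma adjusted p = 0.0530) and with every gene above 0 kept (limma adjusted p = 0.0686). It was lost without any 1 of the other 5 libraries and kept without injected mouse 1, with limma adjusted p between 0.00508 and 0.124 and a log2 change between 0.56 and 0.73. In the authors' deposited table its coefficient was 0.446 on the natural log scale, with a q-value of 3.91e-05 in one test and 0.0262 in the other.

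In GFP mice Trp53inp1 had 6.81, 4.43, 6.05 and 8.67 on the injected side of mice 1 to 4, against 8.22, 4.63, 4.48, 10.1 and 6.45 on the uninjected side of mice 1 to 5. Mice 1 and 4 were the 2 highest on both sides. The log2 change was -0.03 ± 0.25 (SE, limma adjusted p = 0.985), with a 95% interval of -0.59 to 0.53. Its level spread more between GFP mice than between the uninjected sides of the miR-181 mice, where it averaged 9.79 ± 0.68 (SD, n = 3) against 6.77 ± 2.39 (SD, n = 5) in GFP mice; the tables were normalized separately, so the 2 averages are not set against each other by a test.

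Eda2r (chrX:97333840-97377216, minus strand) encodes a receptor of the tumour necrosis factor receptor family that binds ectodysplasin A2. It had 0.556, 1.03 and 1.09 on the miR-181 side of mice 1, 2 and 3, against 0.315, 0.201 and 0.472 on the uninjected side. The sides did not overlap, but the mean was below 1 and the gene was therefore not in the main test. The share of tested genes without overlap does not cover it. Fitted without that filter, the log2 change was 0.74 ± 0.22 (SE, limma adjusted p = 0.174), a scale on which the added 0.5 understates changes of low genes. The authors' deposited table gave a q-value of 0.0229 in one test and 0.0878 in the other, at an average estimated count of 16.4. In GFP mice Eda2r had 0.523, 0.253, 0.691 and 0.225 on the injected side, against 0.293, 0.158, 0.159, 0.851 and 0.248 on the uninjected side. Those sides overlapped, and uninjected mouse 4 stood above all other libraries.

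Gdf15 (chr8:70629393-70632456, minus strand) encodes a secreted stress cytokine of the transforming growth factor beta family. It had 0.135, 0.259 and 0.379 on the miR-181 side of mice 1, 2 and 3, and on the uninjected side it was listed at 0 in mouse 1 and had 0.0376 and 0.250 in mice 2 and 3. These sides overlapped. In GFP mice it had 0.218, 0.119, 0.0874 and 0.170 on the injected side and was listed at 0 in all 5 uninjected libraries. Without the filter the limma adjusted p was 0.427 for the miR-181 set and 0.0636 for the GFP set. The average estimated count in miR-181 mice was 3.25 in the authors' deposited table, which gives no statistics for Gdf15 in GFP mice. No fold is given against libraries listed at 0.

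On the uninjected side of miR-181 mice the order of levels was Phlda3, Bax, Mdm2, Zmat3, Ccng1, Cdkn1a, Trp53inp1, Bbc3, Eda2r and Gdf15. The GFP mice gave the same order. In miR-181 mice the neighbours Mdm2 and Zmat3, Cdkn1a and Trp53inp1, and Eda2r and Gdf15 overlapped between libraries and could not be ranked. In GFP mice Zmat3 and Ccng1 overlapped, as did Ccng1 and Cdkn1a. The average level was 88.3 ± 2.60 for Phlda3 and 3.45 ± 0.99 for Bbc3 on the uninjected side of miR-181 mice (SD, n = 3).

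Counted over the 8 tested genes, the miR-181 mice gave 1 call higher and 0 lower. They gave 7 log2 changes above 0, as had 7857 of all 15453 tested genes. At an unadjusted p below 0.05 there were 4 genes, against 23.5% of all tested genes in either direction and 12.8% higher. The 4 were Trp53inp1, Phlda3, Bax and Ccng1. Their median log2 change, over the 8, was 0.22 in miR-181 mice, against 0.00 (0.0035) over all tested genes. The GFP mice gave 0 calls and 0 genes at an unadjusted p below 0.05, against 9.52% of all tested genes in either direction and 6.84% higher. They gave 5 changes above 0, as had 7914 of all 15274 tested genes, with a median of 0.02 (0.0155) over the 8. Among the 8 tested genes the sides did not overlap for 4 higher and 1 lower in miR-181 mice, against 16.0% higher and 14.5% lower of all tested genes. Over all 10 genes, including both below the filter, the counts were 5 higher and 1 lower. In GFP mice the sides overlapped for all 8 tested genes, where 3.29% of all tested genes were higher and 1.00% lower without overlap. Over all 10 genes 1 was higher without overlap, Gdf15, which lay below the filter and is not covered by those shares. All 10 were counted in each mouse as well, with 8, 9 and 9 higher on the injected side of miR-181 mice 1, 2 and 3, and 7, 8, 5 and 5 in GFP mice 1 to 4. These counts include Eda2r and Gdf15, and the share of all genes higher in a single mouse was not counted. The authors' deposited table for miR-181 mice gave a q-value below 0.05 to 3 of the 10 genes in the first test, which were Trp53inp1, Eda2r and Ccng1, and to 1 in the second. Of all 17950 genes with statistics in the authors' deposited table, 6.55% had such a q-value with a positive coefficient in the first test and 4.04% in the second. In the authors' deposited table for GFP mice the lowest q-value of the first test among the 10 was 0.960, where 1.96% of 16083 genes had one below 0.05 with a positive coefficient in the first test and 1.16% in the second.

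**Figure D2:**
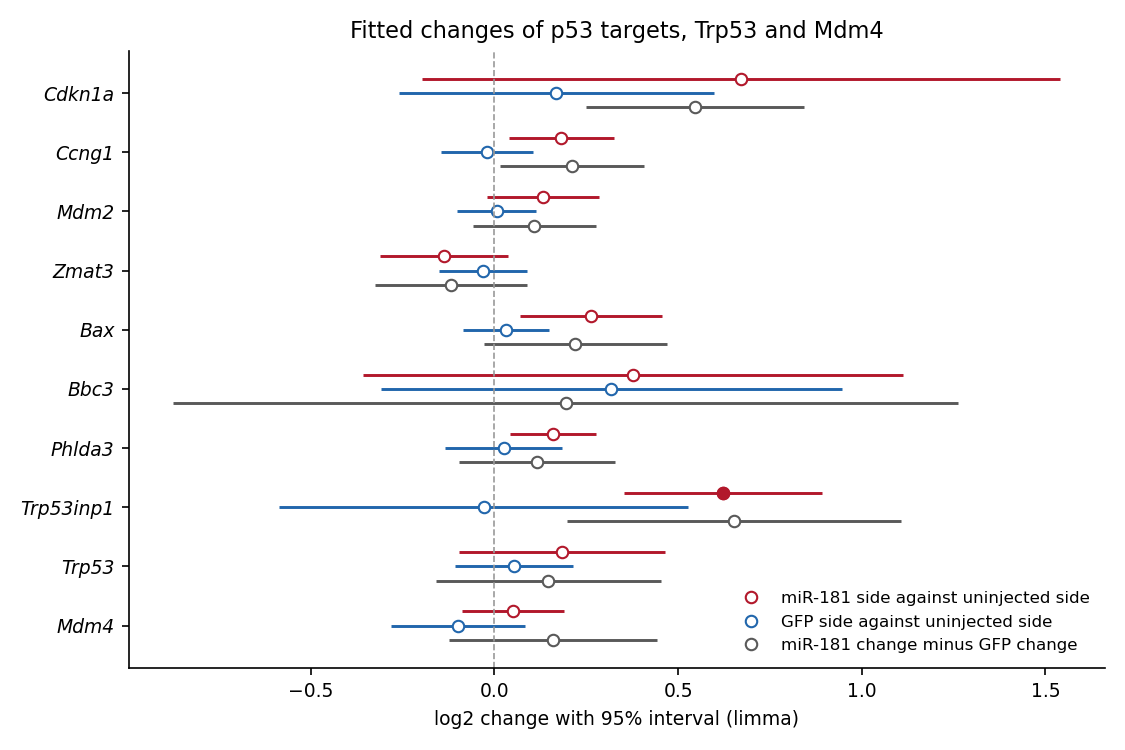
Log2 change with its 95% interval (limma) for the 8 tested p53 targets, Trp53 and Mdm4, as miR-181 side against uninjected side (red), GFP side against uninjected side (blue) and the difference of the per-mouse changes (grey); the filled point has an adjusted p below 0.05. Trp53inp1 at 0.62 in miR-181 mice is the only filled point.

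Whether the change differed between the vectors was tested on the log2 change within each mouse, in 3 miR-181 mice against 4 GFP mice. None of the 8 genes passed, and of 14824 genes 0.00675% were called higher and 0.0270% lower. The difference was 0.55 ± 0.13 for Cdkn1a (SE, limma adjusted p = 0.135) and 0.65 ± 0.20 for Trp53inp1 (SE, limma adjusted p = 0.197). For Ccng1 it was 0.21 ± 0.09 (SE, limma adjusted p = 0.298). These 3 had an unadjusted p below 0.05, as 15.3% of all tested genes did in either direction and 7.05% did with a higher change in miR-181 mice. Without miR-181 mouse 1 the Cdkn1a difference was 0.68, and it then passed (limma adjusted p = 0.0343), as did 1.14% of all tested genes in that direction. Mouse 1 had the smallest Cdkn1a change of the 3 miR-181 mice, so leaving it out had to raise the difference. For Bax the 95% interval of the difference was -0.03 to 0.47, for Mdm2 -0.06 to 0.28 and for Phlda3 -0.10 to 0.33, and each of these intervals includes 0. The median difference over the 8 genes was 0.20, and all per-mouse changes were measured with both sides of an animal in the same library set.

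**Figure D3:**
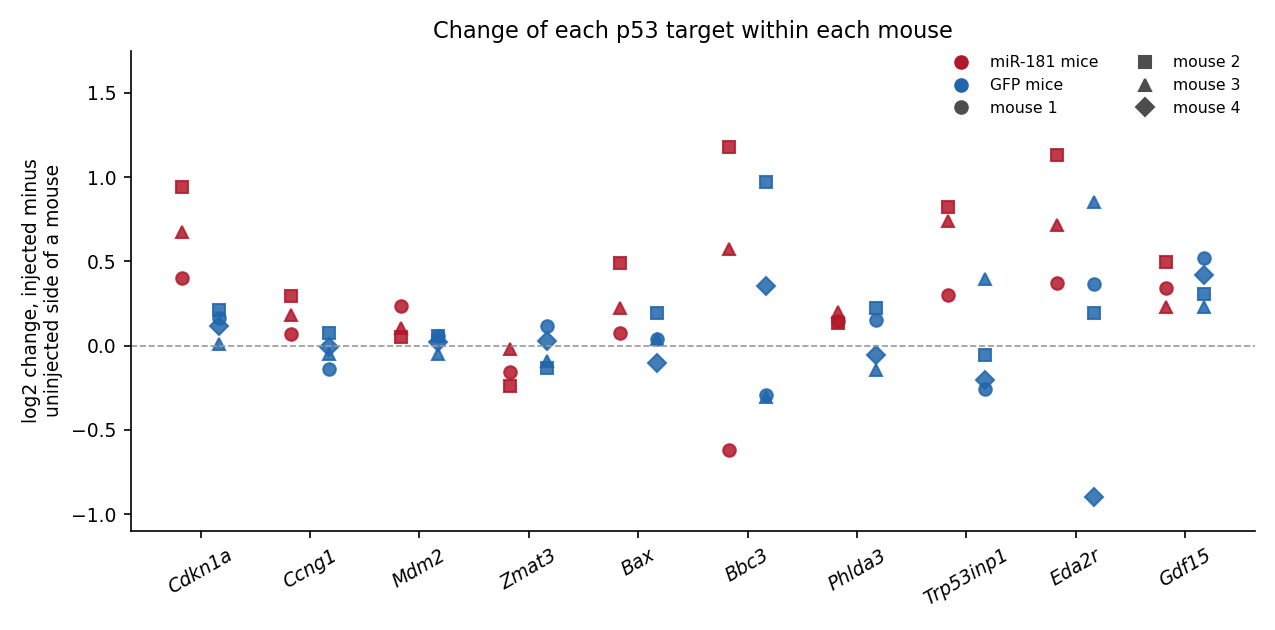
Log2 change of the injected against the uninjected side within each mouse (vertical axis, log2 of value + 0.5) for the 10 p53 targets, in miR-181 mice (red) and GFP mice (blue), with the mouse shown by symbol shape. For Cdkn1a the miR-181 mice lie at 0.40 to 0.94 and the GFP mice at 0.01 to 0.21, while Bbc3 and Eda2r spread across 0. The Cdkn1a difference between the sets was not called (limma adjusted p = 0.135), and the share of all genes separated in this way was not counted.

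Injected mouse 1 was the lowest of the 3 miR-181 injected libraries for every one of the 10 genes except Mdm2 and Zmat3. Without it, 3 of the 8 genes rose (Trp53inp1, Bax at a limma adjusted p = 0.0351 and Cdkn1a at a limma adjusted p = 0.0450), with log2 changes of 0.73, 0.33 and 1.06. In that fit 7.84% of 15436 tested genes were called higher, against 4.39% with all libraries. These 3 genes were lowest in that library on the injected side, so leaving it out had to raise their fitted changes. The share of all genes lowest in it was not counted. The same library had the lowest sums of microglia markers (561.7, against 786.7 and 618.1 in injected mice 2 and 3), of T and NK cell markers (22.3, against 134 and 51.0) and of dividing cell markers (20.6, against 38.3 and 26.4). It was also the lowest for B and plasma cell markers (941.9, against 4991.1 and 4197.0), monocyte and perivascular macrophage markers (18.4, against 59.99 and 70.6) and astrocyte markers (2069.5, against 2381.8 and 2144.9). Its pan-neuronal sum was the highest of the 3 (4005.2, against 3414.0 and 3761.4), as was its dopamine neuron sum (1849.4, against 1023.8 and 1391.9). The part of these in the order of the mice was not tested.

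The p53 gene itself did not pass in either set. Trp53 had 25.9, 31.1 and 27.4 on the miR-181 side of mice 1, 2 and 3, against 28.9, 23.9 and 21.7 on the uninjected side. Mouse 1 was lower on its injected side and mice 2 and 3 were higher. The log2 change was 0.18 ± 0.12 in miR-181 mice (SE, limma adjusted p = 0.405) and 0.05 ± 0.07 in GFP mice (SE, limma adjusted p = 0.857). Mdm4, a relative of Mdm2 that inhibits p53, differed in log2 by 0.05 ± 0.06 in miR-181 mice (SE, limma adjusted p = 0.656), which turned to -0.01 after median centring. In GFP mice it was -0.10 ± 0.08 (SE, limma adjusted p = 0.756). These are mRNA levels, and p53 is controlled mostly through the stability of its protein, which was not measured.

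Among 16 tested genes of the p53 core and its upstream regulators, 0 rose and 1 fell in miR-181 mice, with a median log2 change of 0.05. Over all tested genes 4.39% rose and 1.49% fell there. In GFP mice 0 of the 16 changed, against 1.34% higher and 0.0131% lower of all tested genes. The one that fell was Kat5, which encodes an acetyltransferase that acts on p53 and histones. It had 67.3, 59.2 and 62.9 on the miR-181 side of mice 1, 2 and 3, against 79.3, 74.1 and 77.2 on the uninjected side. Its log2 change was -0.28 ± 0.06 in miR-181 mice (SE, limma adjusted p = 0.0435), against 0.05 ± 0.07 in GFP mice (SE, limma adjusted p = 0.873). The difference between the sets was -0.32 ± 0.07 (SE, limma adjusted p = 0.129). Without 1 library the miR-181 call was kept in 1 of 6 fits, the one without injected mouse 1, and limma adjusted p reached 0.147 in the others. It was also lost with every gene above 0 kept (limma adjusted p = 0.0797) and with no intensity trend (limma adjusted p = 0.0917).

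A further 52 tested p53 targets were read in 3 lists. In miR-181 mice 4 of the 52 rose and 0 fell, with a median log2 change of 0.14, and in GFP mice 3 rose and 0 fell, with a median of 0.05. Over all tested genes 4.39% rose in miR-181 mice and 1.34% in GFP mice. Of the 18 genes of cell cycle arrest and DNA repair none was called in either set. They included 6 at an unadjusted p below 0.05 in miR-181 mice, against 23.5% of all tested genes, and 1 in GFP mice, against 9.52%. Among 15 death genes 2 rose in both sets, Casp1, the caspase of inflammasomes, and Tnfrsf1b, the second receptor for tumour necrosis factor. Among 19 genes of metabolism and other roles, Tap1, a peptide transporter of antigen presentation, rose in both sets, and Rps27l, a ribosomal protein gene, rose in miR-181 mice.

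Tap1 had 39.6, 99.0 and 61.0 on the miR-181 side of mice 1, 2 and 3, against 4.55, 3.91 and 4.15 on the uninjected side. In GFP mice it had 26.3, 11.1, 15.6 and 14.8 on the injected side of mice 1 to 4, against 4.82, 3.61, 2.59, 4.81 and 3.99 on the uninjected side. All injected libraries lay above all uninjected ones in both sets, as for 16.0% of all tested genes in miR-181 mice and 3.29% in GFP mice. The log2 change was 3.74 ± 0.30 in miR-181 mice (SE, limma adjusted p = 0.00270) and 1.93 ± 0.24 in GFP mice (SE, limma adjusted p = 0.00314). Casp1 changed by 1.94 ± 0.25 in miR-181 mice (SE, limma adjusted p = 0.0111) and by 1.24 ± 0.20 in GFP mice (SE, limma adjusted p = 0.0130). Tnfrsf1b changed by 1.30 ± 0.21 in miR-181 mice (SE, limma adjusted p = 0.0194) and by 0.76 ± 0.11 in GFP mice (SE, limma adjusted p = 0.00826). Tap1, Casp1 and Tnfrsf1b are also known as genes of interferon and inflammatory responses. The microglia, T and NK, B and plasma, and monocyte marker sums given above were higher on the injected side in both sets. The part of these in the changes of the 3 genes was not tested. With the mouse block the GFP calls of Casp1 and Tnfrsf1b were lost (limma adjusted p = 0.0637 and 0.0540), and without GFP mouse 1 that of Casp1 was (limma adjusted p = 0.0726). Leaving out 1 library at a time kept Tap1 called in all 6 miR-181 fits and all 9 GFP fits. Casp1 was lost in miR-181 mice without injected mouse 3 or uninjected mouse 1 or 2, and in GFP mice without injected mouse 1 or 2. Tnfrsf1b was kept in miR-181 mice without injected mouse 1 or 2 and lost in the other 4 fits, with limma adjusted p up to 0.0951, and was kept in all 9 GFP fits. Its miR-181 call was also lost with every gene above 0 kept (limma adjusted p = 0.0588).

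Rps27l had 51.8, 60.7 and 50.7 on the miR-181 side of mice 1, 2 and 3, against 44.5, 40.9 and 39.4 on the uninjected side. Its log2 change was 0.38 ± 0.08 in miR-181 mice (SE, limma adjusted p = 0.0492) and 0.11 ± 0.07 in GFP mice (SE, limma adjusted p = 0.681). The miR-181 call was lost with the mouse block (limma adjusted p = 0.0654), after median centring (limma adjusted p = 0.0670) or quantile normalization (limma adjusted p = 0.0550), with every gene above 0 kept (limma adjusted p = 0.0966), with no intensity trend (limma adjusted p = 0.0943) and without any 1 library other than injected mouse 1, with limma adjusted p up to 0.173. Ribosomal protein genes have close copies that can share reads, so its level is uncertain.

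The BCL-2 family partners of Bax and Bbc3 gave 2 of 13 higher and 0 lower in miR-181 mice, where 4.39% of all tested genes were called higher. All 13 log2 changes were above 0, as were 7857 of all 15453 tested genes, and their median was 0.13. In GFP mice 0 of 13 passed, with 10 above 0, as were 7914 of all 15274 tested genes, and a median of 0.11. Mcl1, which guards against Bax, had 43.8, 50.9 and 49.4 on the miR-181 side of mice 1, 2 and 3, against 37.5, 36.2 and 39.5 on the uninjected side. Its log2 change was 0.34 ± 0.07 in miR-181 mice (SE, limma adjusted p = 0.0415, and 0.0596 in limma with the mouse block) and 0.11 ± 0.05 in GFP mice (SE, limma adjusted p = 0.580). The Mcl1 call was kept without injected mouse 1 and lost without any other 1 library, with limma adjusted p up to 0.164, as well as with every gene above 0 kept (limma adjusted p = 0.0801) and with no intensity trend (limma adjusted p = 0.0818). Bcl2a1b, a survival gene of blood cells, changed by 2.14 ± 0.28 in miR-181 mice (SE, limma adjusted p = 0.0109) and by 1.21 ± 0.28 in GFP mice (SE, limma adjusted p = 0.0798). Its miR-181 call was lost without injected mouse 3 or uninjected mouse 1 or 2, with limma adjusted p up to 0.0588. Bcl2a1b has near-identical copies next to it in the mouse genome, so how reads were divided among them is uncertain. None of 10 tested cyclin-dependent kinase inhibitors and senescence genes passed in either set.

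**Figure D4:**
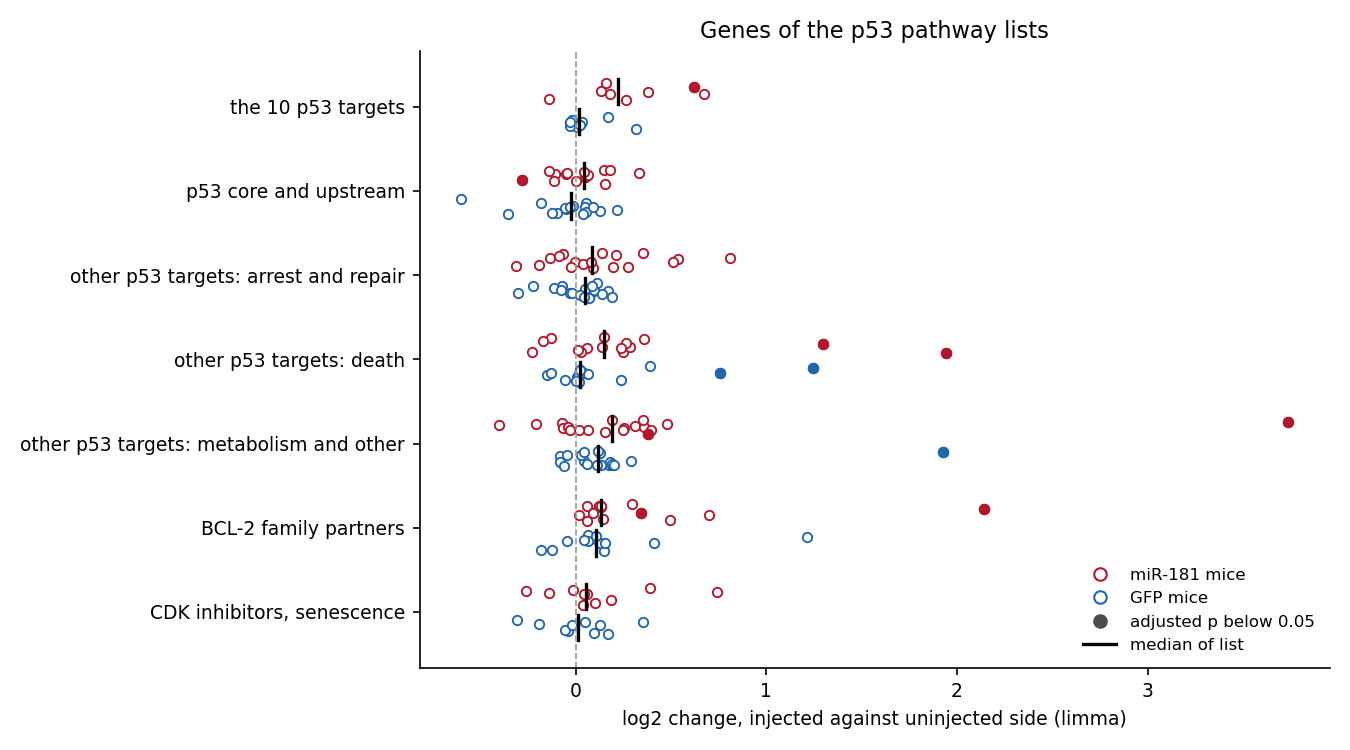
Log2 change of the injected against the uninjected side (limma) for each tested gene of the p53 lists, in miR-181 mice (red, upper row of each list) and GFP mice (blue, lower row); filled points have an adjusted p below 0.05 and black bars are list medians. The medians of the tested p53 targets are 0.22 (miR-181) and 0.02 (GFP), and the points farthest right are Tap1 at 3.74 and Bcl2a1b at 2.14, both in miR-181 mice.

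Of the 4 genes with a miR-181 seed match printed above, the only one with a negative log2 change in miR-181 mice was Zmat3, at -0.14. Cdkn1a (0.67), Ccng1 (0.18) and, without the filter, Eda2r (0.74) had positive changes, none of which was called in the fit without a block. Cdkn1a passed with the mouse block and also without injected mouse 1, its lowest injected library. Ccng1 and Eda2r had a q-value below 0.05 in the authors' first test. The 4 genes with a p53 half-site in their window had log2 changes of 0.67 (Cdkn1a), 0.26 (Bax), 0.18 (Ccng1) and 0.13 (Mdm2) with the miR-181 vector. With the GFP vector they had 0.17, 0.03, -0.02 and 0.01, in the same order. Bbc3 and Phlda3, with no half-site in theirs, had 0.38 and 0.16 with the miR-181 vector and 0.32 and 0.02 with the GFP vector. Eda2r and Gdf15, also with none, were fitted without the filter. They had 0.74 and 0.36 with the miR-181 vector and 0.16 and 0.37 with the GFP vector.

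Over the 6 miR-181 libraries the genes whose log2 values ran most like those of Trp53inp1 were Polr2a (Pearson r = 0.9988), Axl (r = 0.9987) and Socs4 (r = 0.9986). These r values describe 6 libraries that share 3 animals and were taken over the tested genes that have an established symbol. They are the 3 highest of that search, and how many other genes came close was not counted. Axl, a receptor kinase of macrophages and other cells, rose on the miR-181 side (log2 change 0.76, limma adjusted p = 0.0139), whereas Polr2a (0.24, limma adjusted p = 0.0609) and Socs4 (0.18, limma adjusted p = 0.349) did not pass.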

How the data were processed

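PolyA RNA of 15 substantia nigra libraries was sequenced with strand-keeping kits, per the labels' protocols. Reads were quantified on GRCm38 with kallisto 0.43.1 and sleuth 0.30.0, per the submitters' processing notes. The deposited tables, 1 for miR-181 and 1 for GFP mice, hold a signal per gene and library, normalized by the authors and, judged from its sums and its relation to transcript length, TPM divided by a size factor. They also hold the authors' coefficients and mean estimated counts on the natural log scale, and the authors' p-values and q-values from 2 tests. The size factors were set separately in each table, so tests were run within a table. Of 36660 rows with values in each, 395 repeated rows were left out and 36265 genes were kept.

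log2(value + 0.5) was fitted with limma 3.58.1 (R 4.3.3), with an intensity trend and no block, over genes with a mean of at least 1. The difference between vectors was fitted on per-mouse log2 changes. The fits were tested on simulated data. The 2 sides of a mouse are the same animal, which is what pairs them by number. Their departures from the group averages correlated at 0.14 to 0.257 between the sides of miR-181 mice and 0.0177 to 0.192 in GFP mice. With the block, GFP mouse 5 drops out. Named genes are the 10, Trp53, Mdm4, the called genes of each pathway list with the smallest p-values (up to 4) and the 3 most like Trp53inp1. The 10 genes and the lists were chosen with earlier results of these data known. Summed over genes, the authors' mean estimated counts come to 22.01 (miR-181) and 9.65 (GFP) in units of 1e6 per library. Seed matches were searched in 1 GENCODE M21 transcript per gene. Alternatives tried were other pseudocounts, filters and scalings, no trend, the mouse block and leaving out libraries.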

Additional observations from a re-analysis of the deposited data

Results flagged for a closer look

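One value was far from the others of its group. Eda2r in GFP mice was 0.851 in the uninjected library of mouse 4, the highest of 5, and its distance to the nearest library was 0.805 of the whole range of the group. The injected side of the same mouse had 0.225, and the average estimated count of Eda2r in GFP mice was 4.95 in the authors' deposited table. Of 29 groups of values examined this way 1 stood out, and chance flags about 1 in 20.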

How the results depend on the processing

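Depth and number of mice limit these results: the GFP libraries hold fewer estimated counts, and Eda2r and Gdf15 rest on few. Of the 8 tested p53 targets, 1 was called in miR-181 mice; with every gene above 0 kept or with no intensity trend 0 were, and leaving out 1 library gave 0 to 3. With the replicate block (the mouse) 1 was called, but it was Cdkn1a (log2 change 0.67) and not Trp53inp1 (0.62). In GFP mice 0 were called in every alternative run, and in the difference between vectors 0 to 1 were called without 1 mouse and 0 otherwise. The block changed the calls given in the report and no other among the 17 genes fitted under each alternative, which do not include Eda2r, Gdf15, Axl, Polr2a and Socs4. Over those 17 genes, the alternatives kept direction and call in 187 values of the miR-181 comparison, 278 of the GFP comparison and 231 of the difference; they lost a call in 45, 5 and 0, gained one in 3, 0 and 2, and turned the sign in 2, 19 and 1, in that order. The cause of these changes was not tested.

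Signs turned for values near 0. Without both libraries of GFP mouse 1 the GFP log2 change was 0.01 (0.01304) for Ccng1, -0.00077 for Kat5, -0.01 (-0.01239) for Mdm2, -0.0042 for Phlda3 and 0.02 (0.018) for Trp53inp1. For Mdm2 in GFP mice it was -0.01 (-0.01089) after median centring and -0.0080 after quantile normalization, and for Mdm4 in miR-181 mice -0.01 (-0.01427) after median centring. Leaving out 1 library gave GFP ranges of -0.02 to 0.06 (-0.01863 to 0.05866) for Bax, -0.05 to 0.00058 (-0.0532 to 0.0005787) for Ccng1, -0.01 to 0.02 (-0.01472 to 0.02315) for Mdm2, -0.03 to 0.07 (-0.02959 to 0.06525) for Phlda3, -0.0016 to 0.10 for Trp53, -0.17 to 0.13 for Trp53inp1 and -0.06 to 0.0015 (-0.05883 to 0.00153) for Zmat3. It gave -0.0071 to 0.0887 for Mdm4 in miR-181 mice and -0.21 to 0.69 for the difference of Bbc3.

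Calls over all genes moved more. In miR-181 mice, 678 higher and 230 lower became 268 and 47 with every gene above 0 kept, 395 and 54 with no trend, 634 and 468 with median centring and 570 and 148 with the block, and 113 to 1210 higher and 4 to 714 lower without 1 library. In GFP mice, 204 higher and 2 lower became 135 and 1 with a mean of at least 5, 178 and 7 with every gene above 0, 193 and 4 with median centring, 184 and 4 with quantile normalization and 133 and 2 with the block, and 108 to 251 and 0 to 8 without 1 library. In the difference, 1 higher and 4 lower became 1 and 0 with every gene above 0 or quantile normalization, 2 and 1 with no trend, and 1 to 169 and 0 to 154 without 1 mouse.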
